A study of Homo sapiens with 12 samples.

Results

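The genes described here are 44 genes of S phase and DNA replication, taken by symbol from a list of 44 names and looked up in a deposited table of read counts for 16271 gene IDs. All 44 had a row, and all 44 were among the 14676 genes that passed the filter on low counts, so no member was set aside. The libraries came from total RNA of HaCaT, a human keratinocyte line that became immortal in culture, in 4 groups of 3 libraries. The groups were VDR KO cells given 1,25(OH)2D3 (calcitriol, the hormone made from vitamin D) for 8 h, VDR KO cells without it, wild type (WT) cells given the hormone for 8 h, and WT cells without it. VDR is the vitamin D receptor, a nuclear receptor that binds this hormone and then regulates genes. The labels state neither dose nor vehicle, and neither where VDR was edited nor how many clones were used, so the knockout group may stand for 1 clone. Replicates were grown on 6-well plates. Nothing states that they were separate experiments, so p-values measure only the spread between these libraries.

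DNA replication starts when the origin recognition complex, CDC6 and CDT1 load the ring-shaped MCM helicase on DNA. CDC45, the GINS complex and MCM10 then turn the loaded ring into a moving helicase. Polymerase alpha-primase lays down short primers, the clamp loader RFC places the PCNA clamp on them, and polymerases delta and epsilon extend the new strands. RPA coats exposed single strands, FEN1 and LIG1 finish the joins, and RRM1, RRM2, TYMS and TK1 supply deoxynucleotides. Many of these genes are transcribed late in G1 and in S phase under E2F factors, and in epidermis they mark the dividing basal keratinocytes.

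Sequence around the RefSeq start was looked at first for what the members share. Of the 44 members, 38 had a 300-base start region in the RefSeq table for GRCh38.p14. An E2F site was searched as the words TTTCCCGC, TTTCGCGC, TTTGCCGC and TTTGGCGC on both strands, and a CCAAT box as CCAAT on both strands. At least 1 E2F word stood in 18 of 38 members (47.4%), against 1090 of 27305 genes in the whole table (3.99%). A CCAAT word stood in 22 of 38 members (57.9%), against 10846 of 27305 genes (39.7%). The 4 stretches printed here each run from 170 bases to 5 bases before the RefSeq start, on the gene's strand, with every E2F word in capitals. They are shown because POLA1, PCNA and MCM6 carry the same kind of word and yet had different patterns across the groups, and because PRIM2, with no such word in this window, had the largest difference between the genotypes in the response to the hormone. POLA1 lies at chrX:24693748-24693913 on the plus strand, PCNA at chr20:5126627-5126792 on the minus strand, PRIM2 at chr6:57314635-57314800 on the plus strand and MCM6 at chr2:135876448-135876613 on the minus strand.
POLA1: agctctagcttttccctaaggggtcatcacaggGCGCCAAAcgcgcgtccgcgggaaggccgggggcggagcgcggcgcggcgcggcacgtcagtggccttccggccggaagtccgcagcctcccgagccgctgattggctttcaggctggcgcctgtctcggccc
PCNA: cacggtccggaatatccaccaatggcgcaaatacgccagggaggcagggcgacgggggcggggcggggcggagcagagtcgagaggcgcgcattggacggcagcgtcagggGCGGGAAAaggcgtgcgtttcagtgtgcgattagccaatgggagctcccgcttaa
PRIM2: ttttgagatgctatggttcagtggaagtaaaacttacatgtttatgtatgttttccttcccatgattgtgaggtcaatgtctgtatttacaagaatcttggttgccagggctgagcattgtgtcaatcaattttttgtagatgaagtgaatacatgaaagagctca
MCM6: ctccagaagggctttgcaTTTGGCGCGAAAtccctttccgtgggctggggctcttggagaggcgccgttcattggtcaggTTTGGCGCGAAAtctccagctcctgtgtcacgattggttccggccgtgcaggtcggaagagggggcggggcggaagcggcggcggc

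In the MCM6 stretch each run of capitals holds 2 overlapping words on opposite strands, and the run occurs at 2 places. Among the members higher in VDR KO cells in both the treated and the untreated comparison, 10 of 20 with a start region held an E2F word. Among the members lower in both, 6 of 8 did, so the word stood in start regions of genes that differed in either direction. The region also covers bases past the start, where the E2F words of MCM2, CDC6 and GINS1 lay. A match is a description of letters and not a bound site.

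Library totals ran from 11485031 to 15992792 counts. CYP24A1, the hydroxylase that degrades the hormone and a textbook VDR target, averaged 12.2 CPM (counts per 1000000, scaled by TMM) in treated VDR KO cells and 16.9 CPM in untreated VDR KO cells, against 1676 CPM in treated WT cells and 48.0 CPM in untreated WT cells. VDR itself averaged 82.8 and 77.6 CPM in treated and untreated VDR KO cells, against 71.0 and 103.3 CPM in treated and untreated WT cells, so its read count does not by itself tell the genotypes apart. Replicate 3 of untreated WT stood apart from its group on the first principal component, at -32.5 against -54.3 and -55.7. Called values of members that its removal moved by more than 1.5 times are given with and without it. Smaller moves are not all given. The 12 keratinocyte markers, all counted in every group, summed to 1869 to 2063 CPM in treated and 2251 to 2353 CPM in untreated VDR KO cells, against 5199 to 5471 CPM in treated and 4931 to 5985 CPM in untreated WT cells. Of 7 fibroblast markers 3 were counted, with sums of 2.04 to 20.2 CPM over the 12 libraries. All marker sums are CPM by library total, without TMM scaling. In every comparison of genotypes the keratinocyte sum moves with the genotype, and its part in the results was not tested. In bulk RNA, fewer cells in S phase and less RNA per cell cannot be told apart.

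**Figure D1:**
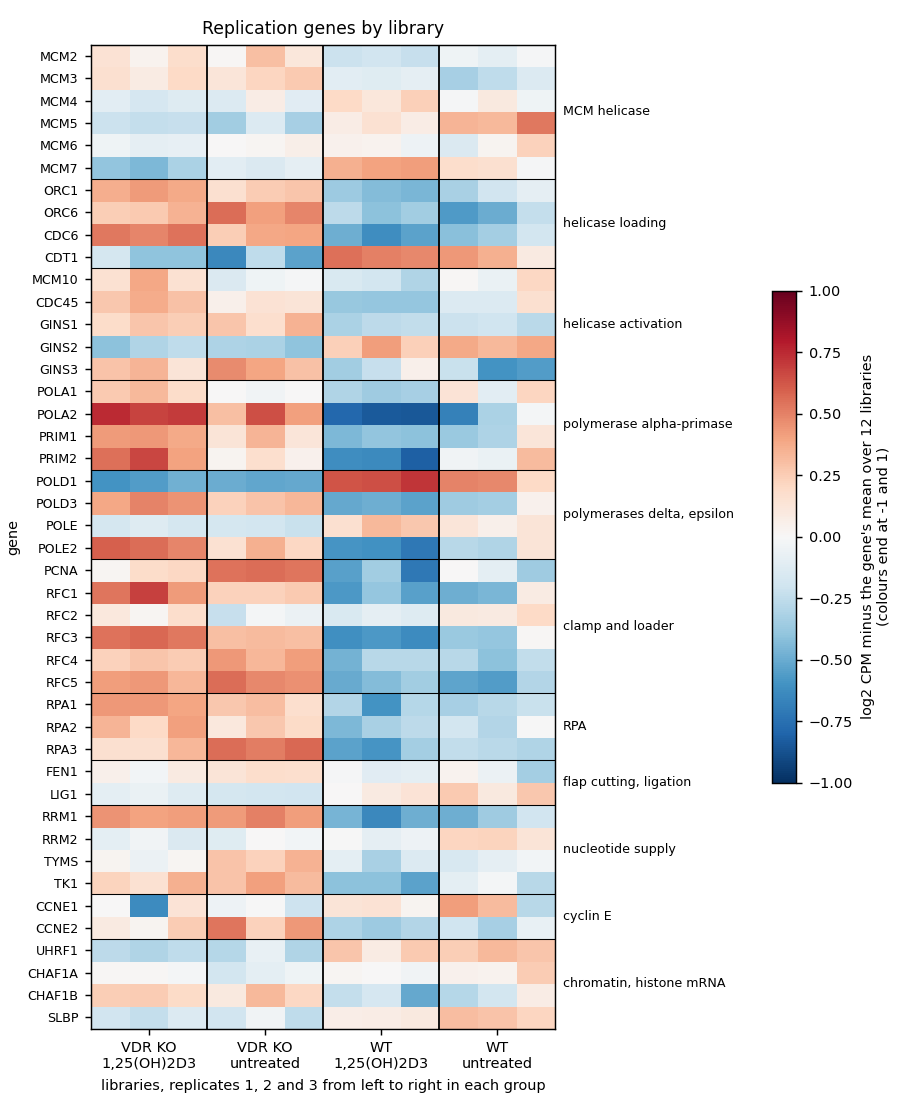
Level of each of the 44 genes (rows, grouped by role) in each of the 12 libraries (columns), as log2 CPM minus the gene's mean over the 12 libraries. The 24 genes called higher in VDR KO cells in both media are mostly red in VDR KO libraries and mostly blue in WT libraries. MCM5, MCM7, CDT1, GINS2, POLD1, POLE, LIG1, UHRF1 and SLBP mostly show the opposite.

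Most replication genes had more RNA in VDR KO cells than in WT cells, in both media, with a smaller set lower. Of 44 members, 29 were higher and 10 lower in treated VDR KO cells (adjusted p below 0.05), where 75.9% of all genes tested were called, 38.4% higher and 37.4% lower. Among untreated cells 25 members were higher and 12 lower, where 69.7% of all genes were called, 35.5% higher and 34.2% lower. The members' median log2 fold change was 0.48 in treated and 0.34 in untreated cells, against 0.02 and 0.01 over all genes. The 3 VDR KO and 3 WT libraries did not overlap for 39 members in treated cells (80.9% of all genes) and for 37 in untreated cells (69.1% of all genes). In both media 24 members were higher in VDR KO cells and 9 were lower, where 29.1% of all genes were higher in both and 28.4% lower in both. These comparisons do not share libraries with each other, though each shares libraries with the treatment comparisons. Among the higher members the log2 fold change in treated cells ran up to 1.53, and the deepest fall was -1.21.

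**Figure D2:**
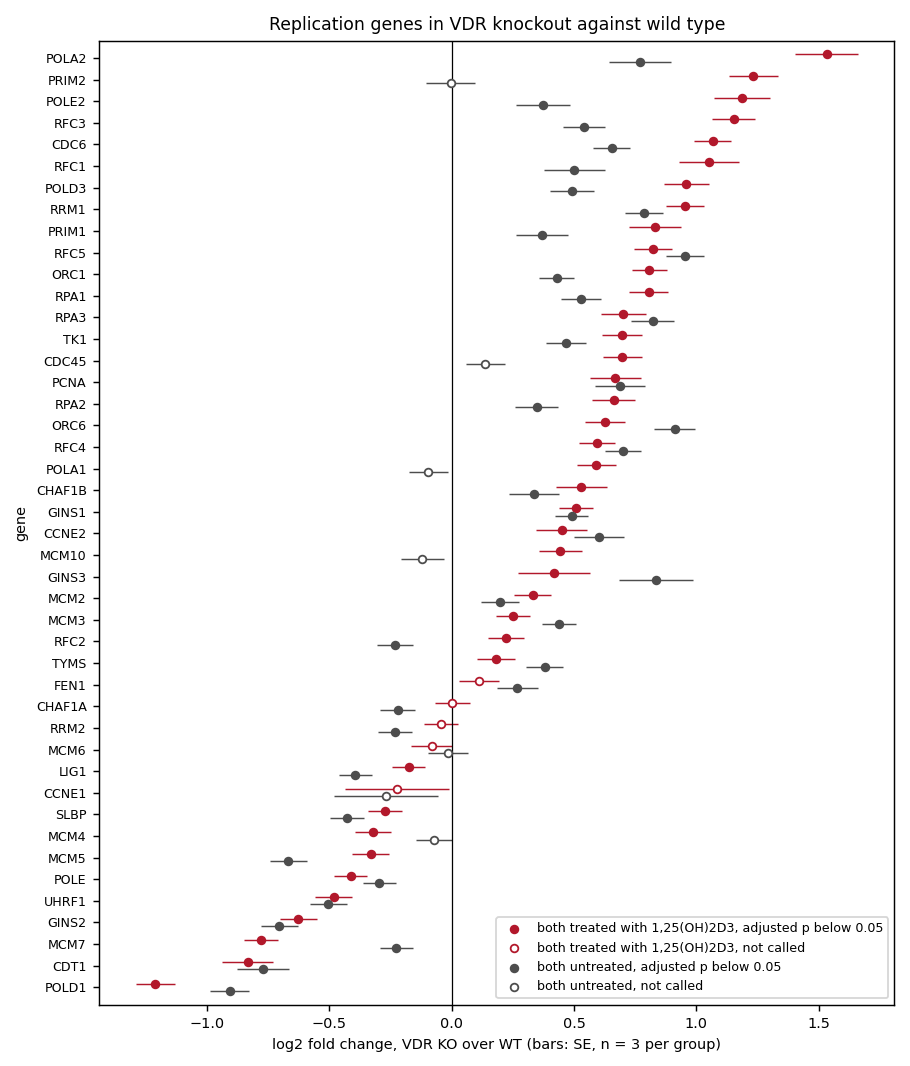
Log2 fold change of each gene in VDR KO over WT, with both genotypes treated (red) and with both untreated (grey), with SE bars and 3 libraries per group. Genes are sorted by the treated value, which runs from -1.21 for POLD1 to 1.53 for POLA2, and filled points have an adjusted p below 0.05.

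The MCM2 to MCM7 genes, which encode the subunits of the replicative helicase, did not move as a unit. MCM2 had 133, 122 and 135 CPM in treated VDR KO cells, against 103, 105 and 102 CPM in treated WT cells, and 121, 148 and 129.8 CPM in untreated VDR KO cells, against 116, 112 and 119 CPM in untreated WT cells. MCM3 had 139, 132 and 143 CPM in treated VDR KO cells, against 116, 115 and 118 CPM in treated WT cells, and 136, 145 and 149 CPM in untreated VDR KO cells, against 99.2, 105 and 113 CPM in untreated WT cells. Both genes were higher in every VDR KO library than in any WT library of the same medium, by log2 fold changes of 0.33 ± 0.08, adjusted p = 0.000841 for MCM2 and 0.25 ± 0.07, adjusted p = 0.00364 for MCM3 in treated cells. In untreated cells the values were 0.20 ± 0.08, adjusted p = 0.029 for MCM2, and 0.44 ± 0.07, adjusted p = 2.94e-05 for MCM3. The untreated MCM2 call was lost on leaving out any 1 of 3 libraries, and its value fell to 0.12 without replicate 2 of untreated VDR KO.

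MCM5 and MCM7 were lower in VDR KO cells. MCM5 had 164, 161 and 161 CPM in treated VDR KO cells, against 200.1, 211 and 200.2 CPM in treated WT cells, and 149, 173 and 151 CPM in untreated VDR KO cells, against 239.5, 238 and 273 CPM in untreated WT cells. MCM7 had 136, 131 and 143 CPM in treated VDR KO cells, against 228, 236 and 239 CPM in treated WT cells, and 166, 161 and 167 CPM in untreated VDR KO cells, against 201, 199.8 and 177 CPM in untreated WT cells. The genotypes did not overlap for either gene in either medium. MCM5 differed by a log2 fold change of -0.33 ± 0.08, adjusted p = 0.000811 in treated cells, and -0.67 ± 0.08, adjusted p = 6.94e-07 in untreated cells. MCM7 differed by -0.78 ± 0.07, adjusted p = 2.42e-08 in treated cells and by -0.23 ± 0.07, adjusted p = 0.00797 in untreated cells, and the untreated call was lost when libraries were scaled by their totals alone. The MCM5 counts equal those of a second gene ID in the table, CTA-286B10.7, so the 2 IDs carry 1 measurement. MCM7 shares exon sequence with AP4M1 on the other strand, and the labels do not say whether counting used strand.

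MCM4 was lower in treated VDR KO cells and was not called in untreated ones, and MCM6 was called in neither. MCM4 had 115, 110.3 and 113 CPM in treated VDR KO cells, against 142, 135 and 146 CPM in treated WT cells (-0.32 ± 0.07, adjusted p = 0.000744), and 113, 131 and 115 CPM in untreated VDR KO cells, against 123, 133 and 121 CPM in untreated WT cells (-0.07 ± 0.07, adjusted p = 0.382). MCM6 had 55.97, 54.3 and 54.6 CPM in treated VDR KO cells, against 59.4, 59.2 and 55.8 CPM in treated WT cells, and 57.99, 58.6 and 60.3 CPM in untreated VDR KO cells, against 52.3, 58.8 and 67.6 CPM in untreated WT cells. Of these 4 comparisons of genotypes, the groups were apart for treated MCM4 and overlapped in the others. MCM6 was called in none of the comparisons, with log2 fold changes of -0.08 ± 0.08 in treated and -0.01 ± 0.08 in untreated cells.

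The genes that load the helicase split between 3 that were higher and 1 that was lower in VDR KO cells, in both media. ORC1, the largest subunit of the origin recognition complex, had 103, 108 and 104 CPM in treated VDR KO cells, against 62.1, 59.1 and 58.4 CPM in treated WT cells, and 89.4, 95.1 and 96.9 CPM in untreated VDR KO cells, against 63.9, 69.8 and 75.1 CPM in untreated WT cells. ORC6, its smallest subunit, had 116, 117 and 124 CPM in treated VDR KO cells, against 81.4, 73.5 and 76.4 CPM in treated WT cells, and 144, 129 and 136 CPM in untreated VDR KO cells, against 65.96, 68.9 and 82.7 CPM in untreated WT cells. CDC6, the ATPase that recruits the helicase to the origin, had 295, 287 and 297 CPM in treated VDR KO cells, against 146, 133 and 141 CPM in treated WT cells, and 242, 267 and 268 CPM in untreated VDR KO cells, against 153, 162 and 179 CPM in untreated WT cells. In all 3 genes every VDR KO library lay above every WT library of its medium. ORC1 was higher by a log2 fold change of 0.81 ± 0.07, adjusted p = 2.50e-08 in treated and 0.43 ± 0.07, adjusted p = 4.81e-05 in untreated cells. For ORC6 the larger value was in untreated cells, 0.91 ± 0.08, adjusted p = 4.98e-08, beside 0.63 ± 0.08 in treated cells. CDC6 was higher by 1.07 ± 0.08, adjusted p = 1.56e-09 in treated cells, and by 0.65 ± 0.07 in untreated cells. CDT1, which brings the helicase ring to ORC and CDC6 and is destroyed once S phase begins, went the other way. It had 58.8, 50.4 and 50.4 CPM in treated VDR KO cells, against 97.5, 94.1 and 92.6 CPM in treated WT cells, and 42.6, 55.9 and 45.9 CPM in untreated VDR KO cells, against 90.02, 85.2 and 70.9 CPM in untreated WT cells. The CDT1 genotypes did not overlap, with log2 fold changes of -0.83 ± 0.10, adjusted p = 1.53e-06 in treated and -0.77 ± 0.10, adjusted p = 5.42e-06 in untreated cells.

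Among the genes that activate the helicase, GINS1 and GINS3 were higher and GINS2 lower in VDR KO cells in both media, although the 3 proteins belong to 1 complex. GINS2 had 41.8, 45.1 and 46.6 CPM in treated VDR KO cells, against 65.8, 74.5 and 65.8 CPM in treated WT cells, and 44.98, 44.7 and 42.2 CPM in untreated VDR KO cells, against 72.4, 69.6 and 72.9 CPM in untreated WT cells. Its log2 fold changes were -0.63 ± 0.08, adjusted p = 8.53e-07 and -0.70 ± 0.07, adjusted p = 3.02e-07 for the treated and untreated comparisons. GINS1 was higher by 0.51 ± 0.07 in treated and 0.49 ± 0.07 in untreated cells. GINS3, at 4.11 to 8.63 CPM in all libraries, was higher by 0.42 ± 0.15 in treated and 0.83 ± 0.15 in untreated cells, and its treated call was lost in 3 of 6 removals of 1 library. GINS2 shares exon sequence with GSE1 on the other strand. CDC45, which rides with GINS on the active helicase, had 258, 278 and 262 CPM in treated VDR KO cells, against 165, 164 and 164 CPM in treated WT cells, and 222, 237 and 234 CPM in untreated VDR KO cells, against 194, 195 and 239.8 CPM in untreated WT cells. MCM10, needed to start the helicase, had 147, 173 and 147 CPM in treated VDR KO cells, against 119, 117 and 107 CPM in treated WT cells, and 119.6, 129 and 132 CPM in untreated VDR KO cells, against 133, 126 and 153 CPM in untreated WT cells. Both genes were apart between treated groups and overlapped between untreated groups. CDC45 was higher in treated VDR KO cells by 0.70 ± 0.08, adjusted p = 5.32e-07, and MCM10 by 0.44 ± 0.09, adjusted p = 0.000178. In untreated cells the values were 0.14 ± 0.08, adjusted p = 0.132 for CDC45, and -0.12 ± 0.09, adjusted p = 0.227 for MCM10. Without replicate 3 of untreated WT, the untreated CDC45 value was 0.24 with an adjusted p of 0.00147.

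Polymerase alpha-primase had the largest genotype difference of any role when the cells were treated, with a median log2 fold change of 1.03 over its 4 genes. All 4 were called higher, where 38.4% of all genes were called higher. POLA1, the polymerase subunit, had 421, 439 and 398 CPM in treated VDR KO cells, against 284, 274 and 278 CPM in treated WT cells, and 351, 342 and 352 CPM in untreated VDR KO cells, against 385, 326 and 406 CPM in untreated WT cells. POLA2, its accessory subunit, had 166, 158 and 160.2 CPM in treated VDR KO cells, against 57.3, 55.1 and 54.8 CPM in treated WT cells, and 122, 155 and 131 CPM in untreated VDR KO cells, against 61.7, 79.4 and 97.6 CPM in untreated WT cells. The POLA1 groups overlapped in untreated cells only, while the POLA2 groups were apart in both media. PRIM1, the catalytic primase subunit, had 80.1, 80.4 and 77.6 CPM in treated VDR KO cells, against 43.7, 45.3 and 44.8 CPM in treated WT cells, and 65.1, 75.5 and 64.97 CPM in untreated VDR KO cells, against 46.04, 48.1 and 64.8 CPM in untreated WT cells. PRIM2, the large primase subunit, had 204, 221 and 185 CPM in treated VDR KO cells, against 90.7, 89.7 and 79.4 CPM in treated WT cells, and 142, 157 and 144 CPM in untreated VDR KO cells, against 136, 133 and 174 CPM in untreated WT cells. The PRIM2 genotypes were thus far apart under the hormone and overlapped without it.

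The tests followed those values. In treated cells POLA2 was higher in VDR KO by a log2 fold change of 1.53 ± 0.13, adjusted p = 6.18e-08, PRIM2 by 1.23 ± 0.10, adjusted p = 8.82e-09, PRIM1 by 0.83 ± 0.11, adjusted p = 1.69e-06, and POLA1 by 0.59 ± 0.08, adjusted p = 3.80e-06. With a trend with gene span removed, a setting described further on, the POLA1 value was 0.21. In untreated cells POLA2 was higher by 0.77 ± 0.13, adjusted p = 7.89e-05, and PRIM1 by 0.37 ± 0.10, adjusted p = 0.00485. POLA1 and PRIM2 were not called there, at -0.10 ± 0.08 and -0.00 ± 0.10. PRIM2 has a partial near-identical copy in the human genome, so how its reads were assigned is uncertain. PRIM1 shares exon sequence with NACA on the same strand.

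**Figure D3:**
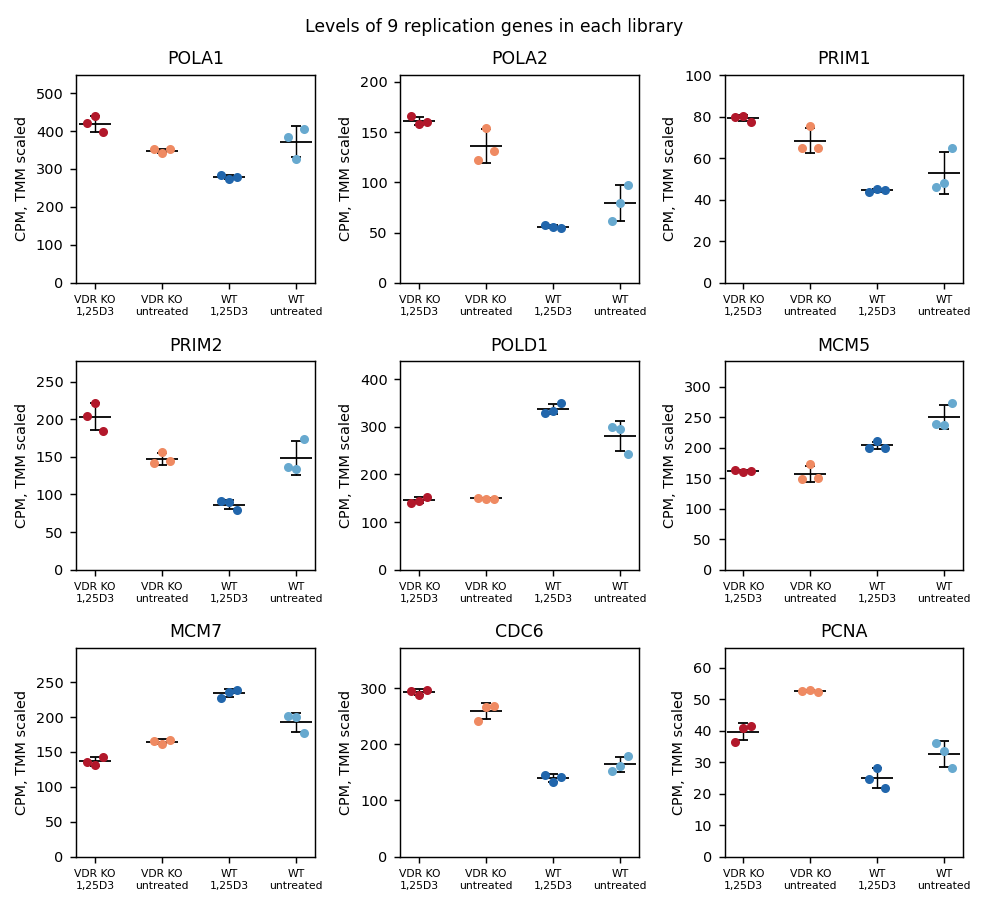
TMM-scaled CPM of 9 replication genes in each of the 12 libraries (points), with the group mean and SD (black), on axes that start at 0. The 4 polymerase alpha-primase genes are highest in treated VDR KO cells and lowest in treated WT cells, while POLD1 and MCM7 are highest in treated WT cells.

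Of the 4 members that encode subunits of the strand-extending polymerases, the catalytic genes POLD1 and POLE were lower in VDR KO cells, and the accessory genes POLD3 and POLE2 were higher. The other accessory genes, POLD2, POLD4, POLE3 and POLE4, are not members, were looked up after their values were seen, and were all lower in both media, with log2 fold changes of -0.63, -0.94, -0.52 and -0.32 in treated cells and -0.61, -0.24, -0.26 and -0.24 in untreated cells. POLD1 had 140.3, 144 and 153 CPM in treated VDR KO cells, against 329, 333 and 350.1 CPM in treated WT cells, and 151, 148 and 149 CPM in untreated VDR KO cells, against 300.3, 297 and 244 CPM in untreated WT cells. POLD3 had 183, 198 and 192 CPM in treated VDR KO cells, against 98.1, 99.96 and 96.4 CPM in treated WT cells, and 165, 171 and 177 CPM in untreated VDR KO cells, against 109, 111 and 144 CPM in untreated WT cells. Every VDR KO library of POLD1 lay below every WT library, and every VDR KO library of POLD3 above. POLE had 227, 235 and 227 CPM in treated VDR KO cells, against 286, 320.4 and 309.6 CPM in treated WT cells, and 227, 225 and 220.01 CPM in untreated VDR KO cells, against 279, 266 and 281 CPM in untreated WT cells. POLE2 had 34.7, 33.8 and 32.2 CPM in treated VDR KO cells, against 15.2, 15.1 and 13.97 CPM in treated WT cells, and 25.5, 29.4 and 26.5 CPM in untreated VDR KO cells, against 18.9, 18.6 and 25.1 CPM in untreated WT cells. POLE was lower in every VDR KO library and POLE2 higher in every one, within each medium. For POLD1 the log2 fold changes were -1.21 ± 0.08, adjusted p = 7.27e-10 in treated and -0.91 ± 0.08, adjusted p = 3.25e-08 in untreated cells. The POLD3 values were 0.96 ± 0.09, adjusted p = 4.88e-08 in treated and 0.49 ± 0.09, adjusted p = 0.000119 in untreated cells. For POLE they were -0.41 ± 0.07, adjusted p = 2.86e-05 and -0.30 ± 0.07, adjusted p = 0.000867, and for POLE2 1.19 ± 0.11, adjusted p = 5.10e-08 and 0.37 ± 0.11, adjusted p = 0.00633, each given for treated and then untreated cells.

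The clamp and its loader were higher in VDR KO cells, 6 of 6 genes in treated cells and 5 of 6 in untreated cells. Over all genes 38.4% were higher in treated and 35.5% in untreated VDR KO cells. PCNA, the sliding clamp, had 36.5, 40.9 and 41.6 CPM in treated VDR KO cells, against 24.7, 28.2 and 21.9 CPM in treated WT cells, and 52.5, 52.9 and 52.1 CPM in untreated VDR KO cells, against 36.1, 33.6 and 28.1 CPM in untreated WT cells. RFC1, the large loader subunit, had 163, 181 and 151 CPM in treated VDR KO cells, against 75.7, 85.9 and 77.1 CPM in treated WT cells, and 132, 132 and 135 CPM in untreated VDR KO cells, against 80.4, 82.1 and 119 CPM in untreated WT cells. RFC3, a small loader subunit, had 245, 251 and 242 CPM in treated VDR KO cells, against 110.1, 113 and 109 CPM in treated WT cells, and 207, 209 and 208 CPM in untreated VDR KO cells, against 130.4, 129 and 169.5 CPM in untreated WT cells. For these 3 genes the genotypes did not overlap in either medium. PCNA was higher by log2 fold changes of 0.67 ± 0.10, adjusted p = 1.83e-05 in treated and 0.69 ± 0.10, adjusted p = 1.44e-05 in untreated cells. RFC1 was higher by 1.05 ± 0.12, adjusted p = 1.95e-06 in treated and 0.50 ± 0.12, adjusted p = 0.00219 in untreated cells. RFC3 was higher by 1.15 ± 0.09, adjusted p = 3.87e-09 in treated and 0.54 ± 0.09, adjusted p = 3.32e-05 in untreated cells.

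RFC4 and RFC5, small subunits of the loader as RFC3 is, were also higher in VDR KO cells in both media, and RFC2 was called in opposite directions. RFC4 had 85.2, 87.9 and 86.6 CPM in treated VDR KO cells, against 52.2, 59.9 and 59.9 CPM in treated WT cells, and 97.9, 91.2 and 96.7 CPM in untreated VDR KO cells, against 59.9, 54.7 and 61.2 CPM in untreated WT cells (0.70 ± 0.07, adjusted p = 2.87e-07). RFC5 had 106, 107 and 100.2 CPM in treated VDR KO cells, against 56.1, 58.99 and 62.5 CPM in treated WT cells, and 118, 111 and 109 CPM in untreated VDR KO cells, against 55.4, 54.02 and 64.99 CPM in untreated WT cells (0.95 ± 0.08, adjusted p = 1.54e-08). RFC5 thus had the smallest adjusted p of the members higher in untreated VDR KO cells. It shares exon sequence with WSB2, and RFC4 with EIF4A2, each on the other strand. RFC2 had 159, 150.1 and 168 CPM in treated VDR KO cells, against 134, 139.6 and 135 CPM in treated WT cells (0.22 ± 0.07, adjusted p = 0.011), and 126, 146 and 142 CPM in untreated VDR KO cells, against 158, 158 and 171 CPM in untreated WT cells (-0.23 ± 0.07, adjusted p = 0.00967). Each RFC2 call was lost on leaving out 1 library (replicate 3 of treated VDR KO, and replicate 1 of untreated VDR KO), and the untreated call was also lost with scaling by library totals alone.

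The remaining members were the single-strand binding, strand-joining, nucleotide, cyclin E and chromatin genes. RPA1, RPA2 and RPA3, the subunits of replication protein A, were all higher in VDR KO cells in both media, with log2 fold changes of 0.66 to 0.80 in treated and 0.35 to 0.82 in untreated cells. RPA3, the smallest subunit, had 27.7, 27.7 and 31.2 CPM in treated VDR KO cells, against 17.1, 16.5 and 19.6 CPM in treated WT cells, and 36.5, 35.4 and 36.9 CPM in untreated VDR KO cells, against 20.95, 20.6 and 20.1 CPM in untreated WT cells (0.82 ± 0.09, adjusted p = 3.98e-07). It shares exon sequence with UMAD1 on the other strand. RRM1, the large subunit of ribonucleotide reductase, had 124, 119.5 and 121 CPM in treated VDR KO cells, against 65.4, 57.98 and 64.7 CPM in treated WT cells, and 122, 128 and 121 CPM in untreated VDR KO cells, against 64.7, 70.8 and 79.4 CPM in untreated WT cells. It was higher by 0.95 ± 0.08, adjusted p = 9.06e-09 in treated and 0.79 ± 0.08, adjusted p = 1.30e-07 in untreated cells, with no overlap. RRM2, its small and cell cycle-limited subunit, did not follow: the values were -0.04 ± 0.07 in treated cells, not called, and -0.23 ± 0.07, adjusted p = 0.00665 in untreated cells, a fall that was lost with scaling by library totals alone. TYMS, which makes thymidylate, had 61.2, 57.7 and 61.1 CPM in treated VDR KO cells, against 56.1, 48.1 and 54.6 CPM in treated WT cells, and 73.3, 70.4 and 76.6 CPM in untreated VDR KO cells, against 53.98, 56.4 and 58.9 CPM in untreated WT cells. It was higher by 0.38 ± 0.08 in untreated cells and by 0.18 ± 0.08 in treated cells, where the call was lost in 4 of 6 removals of 1 library and the value was 0.10 at the lowest, without replicate 2 of treated WT. TK1, which salvages thymidine, had 80.4, 76.7 and 88.4 CPM in treated VDR KO cells, against 51.9, 51.97 and 47.5 CPM in treated WT cells, and 84.3, 91.9 and 85.9 CPM in untreated VDR KO cells, against 64.5, 68.1 and 56.96 CPM in untreated WT cells. The TK1 genotypes were apart in both media, at 0.70 ± 0.08, adjusted p = 7.05e-07 and 0.47 ± 0.08, adjusted p = 7.20e-05 for treated and untreated cells.

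FEN1, which cuts the flaps of lagging-strand fragments, was higher in untreated VDR KO cells by 0.27 ± 0.08, adjusted p = 0.0079, and by 0.16 without replicate 3 of untreated WT. In treated cells it was not called, at 0.11 ± 0.08, but was called at 0.22 with scaling by library totals alone and at 0.47 with a trend with gene span removed. LIG1, the ligase that seals the fragments, was lower by -0.39 ± 0.07, adjusted p = 6.78e-05 in untreated cells, and by -0.18 ± 0.07 in treated cells, where the call was lost in 3 of 6 removals. Of the cyclins that start S phase with CDK2, CCNE2 was higher in both media (0.45 ± 0.10 treated, 0.60 ± 0.10 untreated), while CCNE1, at 2.38 to 4.91 CPM, was not called in either. Genes of newly made chromatin were split. SLBP, which binds the stem-loop of histone mRNA, had 93.9, 90.6 and 97.3 CPM in treated VDR KO cells, against 112, 113 and 115 CPM in treated WT cells, and 93.6, 104 and 90.1 CPM in untreated VDR KO cells, against 133, 131 and 124 CPM in untreated WT cells. UHRF1, which guides DNMT1 to newly copied DNA, had 133, 129.6 and 134 CPM in treated VDR KO cells, against 193, 169 and 192 CPM in treated WT cells, and 131, 151 and 129 CPM in untreated VDR KO cells, against 189, 199.999 and 194 CPM in untreated WT cells. Both were lower in every VDR KO library, SLBP by -0.43 ± 0.07, adjusted p = 3.30e-05 and UHRF1 by -0.50 ± 0.08, adjusted p = 1.63e-05 in untreated cells. Of the subunits of the CAF-1 histone chaperone, CHAF1B was higher in both media (0.53 ± 0.10 treated, 0.34 ± 0.10 untreated). CHAF1A was lower only in the untreated comparison (-0.22 ± 0.07, adjusted p = 0.0117), a call that was lost without replicate 1 of untreated VDR KO and with scaling by library totals alone, and had 0.00 ± 0.07 in treated cells.

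The authors' deposited tables of gene ontology terms hold some of the same genes. In the authors' deposited table whose matched genes were 99.8% higher in treated VDR KO cells by the fold changes above, the term protein-DNA complex had 74 of 4054 listed genes with an adjusted p of 2.21e-05, and 12 of them were members. In the authors' deposited table for untreated cells, with 99.4% of matched genes higher in VDR KO, the same term had 58 of 3189 listed genes with an adjusted p of 0.00123, and 9 were members.

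In WT cells the hormone lowered more replication genes than it raised. After 8 h, 15 of 44 members were lower in treated than in untreated WT cells and 2 were higher, where 24.5% of all genes were called, 13.0% lower and 11.5% higher. The members' median log2 fold change was -0.17, against -0.005 over all genes, and 34 of 44 values were below 0. The 3 treated and 3 untreated libraries did not overlap for 25 members (39.2% of all genes). The count of 15 was 6 without replicate 3 of treated WT, 10 without replicate 1 or replicate 2 of treated WT, 12 without replicate 3 of untreated WT, and 9 when the WT groups were fitted alone. Of the 15 genes, CDC45, POLA1, POLA2, POLE2, PRIM2 and RFC3 kept their calls whichever of the 6 WT libraries was left out.

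The polymerase alpha-primase genes were the role with the deepest fall in WT cells, with a median log2 fold change of -0.47 and 3 of 4 genes called. Over all genes 13.0% were called lower in treated WT cells. PRIM2 fell to 90.7, 89.7 and 79.4 CPM in treated WT cells, against 136, 133 and 174 CPM in untreated WT cells (-0.77 ± 0.10, adjusted p = 8.81e-05). POLA1 fell to 284, 274 and 278 CPM in treated WT cells, against 385, 326 and 406 CPM in untreated WT cells (-0.42 ± 0.08, adjusted p = 0.0015). POLA2 fell by a log2 fold change of -0.51 ± 0.13, adjusted p = 0.0109, and without replicate 3 of untreated WT the value was -0.33. PRIM1 was not called, at -0.25 ± 0.11, adjusted p = 0.0995. Of the other genes with calls that held under removal of each library, CDC45 changed by -0.35 ± 0.08, adjusted p = 0.00447, POLE2 by -0.50 ± 0.11, adjusted p = 0.00464, and RFC3 by -0.37 ± 0.09, adjusted p = 0.00591. RFC3 had -0.22 without replicate 3 of untreated WT. MCM5 changed by -0.30 ± 0.08, adjusted p = 0.00942, with no overlap between 200.1, 211 and 200.2 CPM in treated and 239.5, 238 and 273 CPM in untreated WT cells, and the call was lost without replicate 3 of treated WT.

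The other 8 falls lay between log2 fold changes of -0.39 for PCNA and -0.22 for ORC1, and each was lost on leaving out at least 1 library. They were PCNA, TK1, POLD3, MCM10, RFC2, CDC6, RRM2 and ORC1. Without replicate 3 of untreated WT, POLD3 had -0.16 and MCM10 -0.18, and neither was called. CDC6 and ORC1 also lost their calls without that library. Among the 15, PCNA was the gene whose groups overlapped, with 24.7, 28.2 and 21.9 CPM in treated and 36.1, 33.6 and 28.1 CPM in untreated WT cells. MCM7 and POLD1 rose, and without replicate 3 of untreated WT the count of members higher was 4. MCM7 had 228, 236 and 239 CPM in treated WT cells, against 201, 199.8 and 177 CPM in untreated WT cells (0.28 ± 0.07, adjusted p = 0.0072), and its call held under every removal. POLD1 had 329, 333 and 350.1 CPM in treated WT cells, against 300.3, 297 and 244 CPM in untreated WT cells (0.27 ± 0.08, adjusted p = 0.0206), a call lost without replicate 3 of treated WT. A further authors' deposited table had matched genes that were 100% lower in treated WT cells. Its term G1/S transition of mitotic cell cycle had 33 of 840 listed genes with an adjusted p of 0.0443. Among them were CDC45, POLA1, POLA2, POLE2 and PRIM2. DNA biosynthetic process had 27 of 840 with an adjusted p of 0.0584, and 6 were members. Protein-DNA complex had 39 of 859 with an adjusted p of 4.13e-12, and 4 were members.

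In VDR KO cells few replication genes were called as changed with the hormone. Of 44 members 3 were lower and 1 was higher in treated VDR KO cells, which is 9.09% of the members. Over all genes 2.55% were called, 1.64% lower and 0.913% higher, so the members' share was above that of all genes. The members' median log2 fold change was -0.01. With the VDR KO groups fitted alone, 7 members were higher and 4 lower. PRIM2 rose to 204, 221 and 185 CPM in treated VDR KO cells, against 142, 157 and 144 CPM in untreated VDR KO cells (0.46 ± 0.10, adjusted p = 0.026). PCNA fell to 36.5, 40.9 and 41.6 CPM in treated VDR KO cells, against 52.5, 52.9 and 52.1 CPM in untreated VDR KO cells (-0.41 ± 0.10, adjusted p = 0.046). These libraries did not overlap for either gene. MCM7 changed by -0.27 ± 0.07, adjusted p = 0.0476, and TYMS by -0.29 ± 0.07, adjusted p = 0.0482, also with no overlap between 136, 131 and 143 CPM in treated and 166, 161 and 167 CPM in untreated VDR KO cells for MCM7. These 4 calls did not hold when libraries were left out: PCNA, MCM7 and TYMS lost theirs in each of 6 removals of 1 library, PRIM2 in 4 of 6, and all 4 under an adjusted p of 0.01. Groups did not overlap for 25 members (31.6% of all genes).

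**Figure D4:**
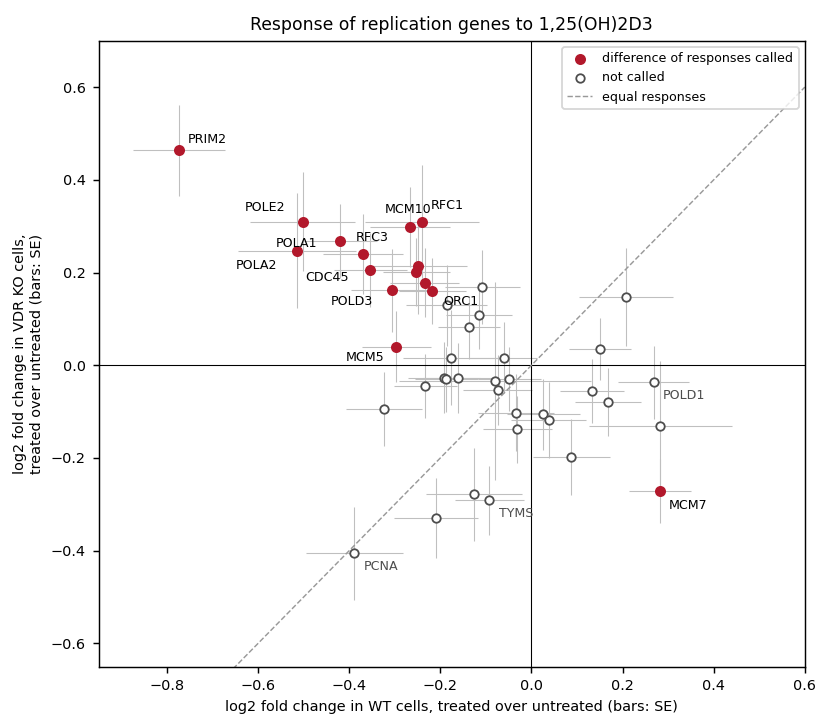
Log2 fold change of each gene with the hormone in VDR KO cells (vertical axis) against that in WT cells (horizontal axis), with SE bars. Red points are the 15 genes whose responses differed between the genotypes, with 14 above the dashed line of equal responses and MCM7 below it.

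The responses of 15 members differed between the genotypes by a test of the difference itself, 14 with a higher log2 response in VDR KO cells and 1, MCM7, with a lower one. Over all genes 26.3% were called, 13.8% with a higher and 12.5% with a lower response in VDR KO cells. The members' median difference was 0.16, against -0.01 over all genes. Polymerase alpha-primase was the role with every gene called. It holds the longest members of known span, PRIM2 at 332 kb and POLA1 at 303 kb, beside POLA2 at 43.8 kb and PRIM1 at 20.8 kb. Gene span moved with these differences, as described further on. PRIM2 differed by 1.24 ± 0.14, adjusted p = 5.99e-05, with responses of 0.46 ± 0.10 in VDR KO and -0.77 ± 0.10 in WT cells. POLA2 differed by 0.76 ± 0.18, adjusted p = 0.00716, with 0.25 ± 0.12 in VDR KO and -0.51 ± 0.13 in WT cells. POLA1 differed by 0.69 ± 0.11, adjusted p = 0.000554, with 0.27 ± 0.08 in VDR KO and -0.42 ± 0.08 in WT cells. PRIM1 differed by 0.46 ± 0.15, adjusted p = 0.0296, with 0.21 ± 0.10 in VDR KO and -0.25 ± 0.11 in WT cells, neither of them called.

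Other members with a called difference came from 5 more roles. The polymerase accessory genes POLE2 and POLD3 differed by 0.81 ± 0.16, adjusted p = 0.00155 and 0.47 ± 0.13, adjusted p = 0.0127. The loader genes RFC3, RFC1 and RFC2 differed by 0.61 ± 0.12, adjusted p = 0.00201, 0.55 ± 0.17, and 0.45 ± 0.10. CDC45 and MCM10 differed by 0.56 ± 0.11 and 0.56 ± 0.12, the loading genes CDC6 and ORC1 by 0.41 ± 0.11 and 0.38 ± 0.10, and MCM5 by 0.34 ± 0.11. MCM7 differed by -0.55 ± 0.10, adjusted p = 0.00085, falling in VDR KO cells and rising in WT cells. For POLD1, which rose in WT cells and was at -0.04 ± 0.08 in VDR KO cells, the difference was not called (-0.31 ± 0.11, adjusted p = 0.0537). Of the 14 higher calls 11 held on leaving out each of the 12 libraries, and so did MCM7. MCM5, PRIM1 and RFC1 each lost theirs in 7 of 12 removals. Without replicate 3 of untreated WT the counts were 15 higher and 3 lower, PRIM1 was at 0.28 and RFC1 at 0.33.

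The length of a gene moved with these differences. Gene span (first to last annotated base, GENCODE v29) was known for 43 members and ran from 4.61 kb for FEN1 to 332 kb for PRIM2, with a median of 25.4 kb. Across those 43 genes, which share libraries and depth, Spearman's rho between span and log2 fold change was 0.49 for the difference of responses, -0.36 for the response in WT cells, 0.54 for the response in VDR KO cells, 0.41 for genotype in treated cells and 0.13 for genotype in untreated cells. Over 14135 genes the same values were 0.36, -0.23, 0.40, 0.21 and 0.06. In replicate 3 of untreated WT, the log2 level minus the mean of replicates 1 and 2 had a rho of 0.49 with span over the members and 0.35 over all genes. In the 21 members longer than the median, 10 had a higher response in VDR KO cells. In the 22 others 4 had a higher response and 1, MCM7, a lower one. Over all genes 13.8% had a higher and 12.5% a lower response, and the same split was not made for them. A trend with span was also taken out of the log counts, a setting chosen after seeing the data. In that setting 17 members had a higher and 1 a lower response in VDR KO cells. Over all genes 22.1% were called there, 12.1% with a higher and 9.97% with a lower response. Of the 17 members 13 were shared with the 14 above, and POLD3 lost its call at 0.23. The difference of responses was then 0.35 for POLA1, 0.40 for RFC3 and -0.34 for MCM7, all still called, and RRM2, TK1, RPA2 and SLBP gained calls. For genotype in treated cells the same setting gave 0.21 for POLA1, 0.36 for TYMS, -0.48 for MCM7, -0.48 for CDT1, -0.41 for GINS2, -0.30 for LIG1, -0.18 for MCM4 and -0.16 for SLBP. These 8 kept their calls, GINS3 lost its own at 0.20, and FEN1 at 0.47 and RRM2 at 0.23 gained one. For untreated cells MCM7 had -0.15 and MCM10 gained a call at -0.18. For the hormone in WT cells POLA1 had -0.25 and MCM7 0.18, POLD3 lost its call at -0.20, and POLE and SLBP gained one. In VDR KO cells PRIM2 lost its call at 0.29, as did PCNA, MCM7 and TYMS, and RPA3 gained one. The part of span in these results was not otherwise tested.

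**Figure D5:**
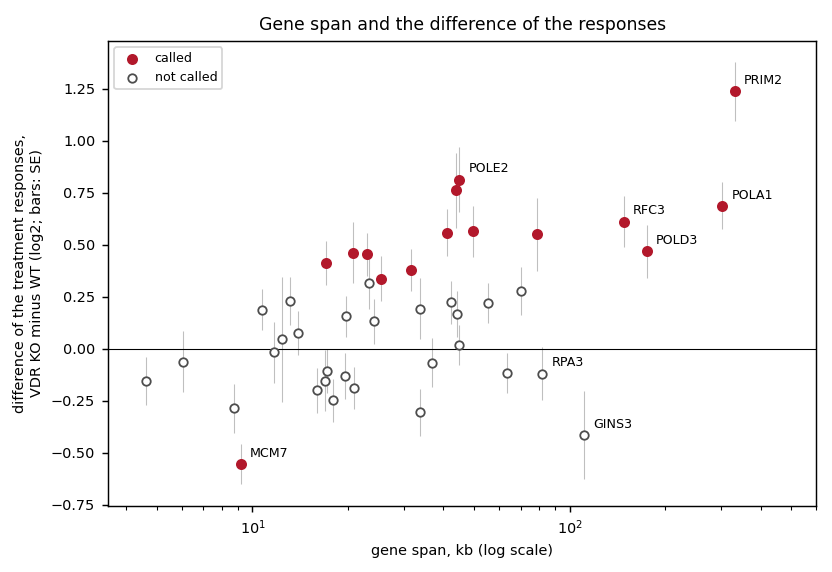
Difference of the hormone responses (VDR KO minus WT, log2, with SE bars) against gene span on a log scale for 43 genes. PRIM2, the longest at 332 kb, has the largest difference at 1.24, and MCM7 at 9.21 kb has the lowest at -0.55.

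Other genes of the replication machinery were read from lists of names that exclude the members. Of 32 tested genes in a list of further replisome parts, 20 were higher and 8 lower in treated VDR KO cells, and 17 were higher and 9 lower in untreated ones, with medians of 0.46 and 0.27. Calls were thus made for 87.5% and 81.3% of the list, against 75.9% and 69.7% of all genes in treated and untreated cells. TICRR, which helps to fire origins, was higher by 1.32 ± 0.09 in treated and 1.00 ± 0.09 in untreated cells. GMNN (geminin), the inhibitor of CDT1, was higher by 0.83 ± 0.08 and 1.00 ± 0.08 in treated and untreated cells, and ORC4 by 1.37 ± 0.10 and 0.91 ± 0.10. CHTF18, of an alternative clamp loader, was lower by -1.34 ± 0.09 and -0.98 ± 0.09, and POLD2, a polymerase delta subunit, by -0.63 ± 0.07 and -0.61 ± 0.07. With the hormone in WT cells 5 were higher and 5 lower (31.3% of the list, against 24.5% of all genes). In VDR KO cells 1 was higher and 2 lower (9.38% of the list, against 2.55% of all genes). The responses of 7 were higher and of 5 lower in VDR KO cells (37.5% of the list, against 26.3% of all genes). WDHD1, a fork protein that links polymerase alpha to the helicase, fell in WT cells by -0.47 ± 0.09, adjusted p = 0.00116, and differed between genotypes by 0.74 ± 0.12.

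The E2F and RB list held 20 names at 21 tested gene IDs. In treated VDR KO cells 11 were higher and 6 lower, and in untreated ones 10 were higher and 3 lower, which is 81.0% and 61.9% of the list against 75.9% and 69.7% of all genes. E2F8, a repressor made in S phase, was higher by 1.98 ± 0.10 and 1.77 ± 0.10 in treated and untreated cells, and E2F2, an activator, by 1.46 ± 0.09 and 1.82 ± 0.09. DTL, which targets CDT1 for destruction on PCNA-bound chromatin, was higher by 1.40 ± 0.08 in treated cells. E2F1 was lower in treated VDR KO cells by -0.53 ± 0.08, rose with the hormone in WT cells by 0.38 ± 0.08, adjusted p = 0.00405, and differed in response by -0.49 ± 0.12. DTL fell in WT cells by -0.48 ± 0.08, adjusted p = 0.000673, rose in VDR KO cells by 0.35 ± 0.08, adjusted p = 0.0332, and differed by 0.83 ± 0.11, adjusted p = 0.000172. With the hormone 3 of 21 were higher and 3 lower in WT cells (28.6% of the list, against 24.5% of all genes). In VDR KO cells 1 was higher and 0 lower by edgeR's test (4.76% of the list, against 2.55% of all genes). The responses of 3 were higher and of 5 lower in VDR KO cells (38.1% of the list, against 26.3% of all genes). At an unadjusted p below 0.05, 4 of the 21 were lower in treated VDR KO cells, and DESeq2 called 1 of them lower.

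Of 18 genes of the fork checkpoint, which guards stalled forks, 14 were higher and 3 lower in treated VDR KO cells, and 12 higher and 1 lower in untreated ones, or 94.4% and 72.2% of the list against 75.9% and 69.7% of all genes. ZRANB3, a fork remodeller, was higher by 1.94 ± 0.12 and 1.10 ± 0.12 in treated and untreated cells, and EXO1, a nuclease, by 1.53 ± 0.11 in treated cells. TONSL was lower by -0.77 ± 0.08 and -0.79 ± 0.08. In WT cells the hormone lowered 7 and raised 3, 55.6% of the list against 24.5% of all genes. RAD18, a ubiquitin ligase that modifies PCNA, fell by -0.73 ± 0.10, adjusted p = 0.000183, CHEK1, the checkpoint kinase, by -0.42 ± 0.09, adjusted p = 0.00455, and WEE1, which holds CDKs inactive, rose by 0.49 ± 0.07, adjusted p = 0.000275. In VDR KO cells 0 of 18 were called by edgeR's test, where 2.55% of all genes were called. Unadjusted p-values under 0.05 were found for 5 higher and 3 lower genes. DESeq2 called 2, both higher. The responses of 8 were higher and of 3 lower in VDR KO cells (61.1% of the list, against 26.3% of all genes). RAD18 led them at 1.11 ± 0.14, adjusted p = 0.000122.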

How the data were processed

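For each library and gene the authors deposited raw read counts, listed under human Ensembl IDs, and CPM that equal the count over its column total to within 0.005. They also deposited gene ontology tables, of which 3 were used. Per the file headers these hold p-values, raw and adjusted, and other values such as gene numbers per term. Which group was higher in a table was read from the fold changes of its genes. The submitters' processing notes name BWA 0.5.9 and mm9, which is a mouse build. The IDs are human, so the build behind the counts is uncertain. Spans come from GENCODE v29 on GRCh38, which placed 43 of 44 members.

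In R 4.3.3, edgeR 4.0.16 was run on the counts with TMM scaling (factors 0.95 to 1.06) and filterByExpr, which kept 14676 genes and set 1595 aside. All 12 libraries entered 1 robust quasi-likelihood fit, and Benjamini-Hochberg adjustment covered all genes tested within a comparison. A gene was called at an adjusted p below 0.05. Beside a log2 fold change, ± gives the standard error (the change over the root of its F), with n = 3 per group. The comparisons were genotype in each medium, treatment in each genotype, and the difference of responses (VDR KO minus WT). Each member had at least 29 counts in every library. Exons of 14 members overlap those of another counted gene. These are MCM2, MCM7, GINS2, POLD3, PRIM1, RFC4, RFC5, RPA1, RPA3, TYMS, FEN1, CCNE2, CHAF1A and CHAF1B. For POLD3, PRIM1, FEN1 and CHAF1B an overlapping gene lies on the same strand.

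The members, lists and rules were chosen with earlier results of these data known. Library values are given for MCM2 to MCM7, up to 6 members each way with the smallest adjusted p in a comparison, members called in the difference of responses, and members called in opposite directions. From each other list up to 3 genes each way were eligible, by smallest adjusted p. Marker lists covered keratinocytes, fibroblasts, melanocytes (1 of 5 counted, 0.52 to 1.61 CPM), endothelium (1 of 3, 2.56 to 7.86 CPM) and immune cells (0 of 5 listed in the table). Alternatives were DESeq2 1.42.0 and its size factors, library totals alone, no filter or a stricter one, limma 3.58.1 on log2(CPM + 1), an adjusted p below 0.01, only the groups compared, a replicate block, each library left out, and, after seeing the data, removal of a trend with gene span. For limma the CPM were the deposited ones, without TMM scaling. The fit was tested on simulated data.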

Additional observations from a re-analysis of the deposited data

Results flagged for a closer look

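The response to 1,25(OH)2D3 differed between VDR KO and WT cells for 15 of the 44 genes, by edgeR's test of the difference itself. That is 34.1% of the members, against 26.3% of all genes. Over all genes, 13.8% had a higher and 12.5% a lower response in VDR KO cells. PRIM2 differed by 1.24 on the log2 scale, POLE2 by 0.81, POLA2 by 0.76, POLA1 by 0.69 and RFC3 by 0.61. MCM10 and CDC45 each differed by 0.56, RFC1 by 0.55, POLD3 by 0.47, PRIM1 by 0.46, RFC2 by 0.45, CDC6 by 0.41, ORC1 by 0.38 and MCM5 by 0.34. MCM7 had the one negative value, -0.55, with a fall in VDR KO cells and a rise in WT cells. The calls of MCM5, PRIM1 and RFC1 were each lost in 7 of 12 removals of 1 library, and without replicate 3 of untreated WT the values of PRIM1 and RFC1 were 0.28 and 0.33.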

How the results depend on the processing

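Counts of members for genotype, in both media and both directions, stayed within 1.5 times the counts reported under each alternative run, with 27 to 28 higher and 9 to 10 lower in treated cells and 24 to 26 higher and 10 to 13 lower in untreated cells over the removals of 1 library. For treatment in WT cells (2 higher, 15 lower), an adjusted p below 0.01 gave 1 and 7, the WT groups alone 1 and 9, and removals of 1 library 1 to 4 and 6 to 15, the 6 without replicate 3 of treated WT. For treatment in VDR KO cells (1 higher, 3 lower), DESeq2 gave 3 higher, the VDR KO groups alone 7 higher, an adjusted p below 0.01 gave 0 and 0, removal of the span trend 0 and 1, and removals of 1 library 0 to 1 and 0. For the difference of responses (14 higher, 1 lower), an adjusted p below 0.01 gave 9 higher, and DESeq2, library totals alone and limma each gave 2 lower; removals gave 11 to 16 higher and 1 to 3 lower. With the replicate block the counts were 2 and 13 for WT, 0 and 0 for VDR KO, and equal to those reported elsewhere. Libraries with the same number deviated from their group means with correlations of -0.18 to 0.12, so the numbers were not taken to pair them. RRM2 in treated cells, not called at -0.04 as reported, was 0.23 (adjusted p = 0.0045) with the span trend removed, and FEN1 there, not called at 0.11, was 0.47 (adjusted p = 1.98e-06). The cause was not tested for either. Scaling by library totals moved the median of all genes by 0.12 in untreated and 0.11 in treated VDR KO against WT. It ended the falls of MCM7, RFC2, RRM2 and CHAF1A in untreated cells and of LIG1 in treated cells. The limma run ended the same falls, but it used the deposited CPM, which are also scaled by library totals alone. Scaling by library totals also gave calls to CDC45 in untreated cells at 0.26 and FEN1 in treated cells at 0.22. With it MCM2 moved to 0.32 and POLE to -0.17 in untreated cells, and MCM4 to -0.21, SLBP to -0.16 and TYMS to 0.29 in treated cells. Over all genes, for treated against untreated VDR KO cells, it gave 98 higher and 392 lower calls in place of 134 and 240. Among 3740 single-gene values under alternatives, 3465 kept direction and side of the threshold, 148 lost and 44 gained a call, 82 changed sign with neither value called, and 1, RRM2 above, changed sign and was called. CCNE1, with 29 to 57 counts a library, had the widest error, with an SE of 0.21 for genotype in each medium. Its log2 fold changes of -0.27 in untreated and -0.22 in treated VDR KO against WT were not called.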

Other observations

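Most mitotic genes were higher in VDR KO cells, where 38.4% of all genes were higher in treated and 35.5% in untreated cells. Of 25 G2 and M phase genes tested, 20 were higher and 0 lower in treated VDR KO cells by edgeR's test (also 20 and 0 at an unadjusted p below 0.05 and by DESeq2), and 22 were higher and 1 lower in untreated ones, with medians of 1.08 and 0.86. CDK1, the kinase that drives mitosis, was higher by 1.70 ± 0.09 and 1.24 ± 0.08 in treated and untreated cells, and KIF11, a spindle motor, by 1.61 ± 0.09 in treated cells. CCNF (cyclin F), which marks RRM2 for destruction, was lower in untreated VDR KO cells by -0.65 ± 0.07, fell with the hormone in WT cells by -0.32 ± 0.07, adjusted p = 0.00237, and differed in response by 0.60 ± 0.09, adjusted p = 0.000408. With the hormone in WT cells 6 were lower and 1 higher, 28% of the list against 24.5% of all genes. CCNB2 (cyclin B2) fell by -0.59 ± 0.10, adjusted p = 0.000553, CDK1 by -0.49 ± 0.08, adjusted p = 0.000687, and PLK1, a mitotic kinase, rose by 0.42 ± 0.08, adjusted p = 0.00115. In VDR KO cells CCNF was the 1 gene called higher and 0 were lower (4% of the list, against 2.55% of all genes). At an unadjusted p below 0.05, 4 were lower, and DESeq2 called 3 lower.

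Of 20 further genes of nucleotide supply, 8 were higher and 6 lower in VDR KO cells in each medium, 40% and 30% of the list, near the shares of all genes (38.4% and 37.4% in treated cells, 35.5% and 34.2% in untreated cells). IMPDH1, of guanine nucleotide synthesis, was lower by -1.28 ± 0.09 and -0.97 ± 0.09 in treated and untreated cells, and PAICS, of purine synthesis, was higher by 0.81 ± 0.07 and 0.40 ± 0.07. CTPS1, which makes CTP, fell with the hormone in WT cells by -0.55 ± 0.09, adjusted p = 0.000412, rose in VDR KO cells by 0.35 ± 0.09, adjusted p = 0.046, and differed by 0.90 ± 0.12, adjusted p = 0.000172. Of 20 genes of chromatin copied with DNA, 10 were higher in VDR KO cells in each medium, and 4 were lower in treated and 5 in untreated cells, so that 70% and 75% of the list were called, against 75.9% and 69.7% of all genes. The histone chaperone ASF1A was higher by 1.27 ± 0.09 and 1.12 ± 0.09, while SSRP1, of the FACT chaperone, was lower by -1.12 ± 0.10 in treated cells, rose with the hormone in WT cells by 0.39 ± 0.10, adjusted p = 0.00804, and fell in VDR KO cells by -0.41 ± 0.10, adjusted p = 0.0443. HAT1, a histone acetyltransferase, fell in WT cells by -0.64 ± 0.08, adjusted p = 0.000103, and differed between genotypes by 0.91 ± 0.12, adjusted p = 0.000117.

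Summed over the 44 genes, the level was 5904 to 6003 CPM in treated VDR KO cells, 5515 to 5782 CPM in untreated VDR KO cells, 4949 to 4980 CPM in treated WT cells and 5282 to 5673 CPM in untreated WT cells, the highest of the last being replicate 3. Per kilobase of merged exons, levels in untreated WT cells ran from 0.89 CPM per kb for GINS3 to 83.8 CPM per kb for RRM2, the helicase genes lying between 14.5 for MCM6 and 43.9 for MCM7.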
